A study of Drosophila melanogaster with 12 samples.

Results

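The missense allele kdm5 L854F was set directly against kdm5 JmjC* in mRNA of the ventral nerve cord, taken from Drosophila melanogaster larvae of the third instar at the wandering stage. L854F larvae were homozygous for the first allele, and JmjC larvae were homozygous for kdm5 JmjC*, an allele that the series describes as enzymatically inactive. The comparison took 4 L854F samples and 4 JmjC samples, 8 of the 12 in the series, and kept the 13416 genes present in both deposited tables of poly(A) mRNA counts. The other 4 samples, called WT, came from larvae carrying kdm5 140 rescued by a gKDM5 transgene, and their levels are given beside each difference although they took no part in it. The labels do not say whether L854F and JmjC larvae also carry a kdm5 transgene, and they give neither sex, nor how many larvae went into a sample, nor a shared day or batch. They also do not say that samples came from separate crosses, so the p-values measure the spread between these samples, part of which may be technical.

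KDM5 is a chromatin protein of the JmjC family. Its catalytic domain removes methyl groups from lysine 4 of histone H3, a mark of active promoters, and other domains of the protein bind histones and DNA. Alleles that change single residues and alleles that abolish catalysis therefore need not have the same effect on transcription. The larval ventral nerve cord holds motor neurons, interneurons, peptidergic neurons, glia and dividing neuroblasts.

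The 8 samples and the 4 WT samples held between 15103631 and 16850705 counts, with 10 counts or more for 9037 to 9353 genes in each. The biological coefficient of variation between replicates was 9.73%. On the first principal component, with 53.6% of the variance, L854F samples lay between 0.32 and 0.40 and JmjC samples between -0.39 and -0.30. The 10 neuronal markers summed to between 7344 and 8576 CPM (counts scaled to library size with TMM factors) in L854F, between 7517 and 8695 CPM in JmjC and between 7484 and 8369 CPM in WT, and all 10 were detected. In RNA from a whole tissue, fewer cells of a type and less RNA per cell cannot be told apart, and this holds for every cell type named here.

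The kdm5 transcript did not separate the alleles. Kdm5 (FBgn0031759, 2L:5989400-5999501, minus strand) averaged 774 ± 30.5 CPM in L854F and 773 ± 37.9 CPM in JmjC, with 716 ± 33.9 CPM in WT (SD, n = 4 each). The log2 change, given throughout as L854F over JmjC, was 0.01 (SE 0.06), and its sign depended on the scaling. An exact two-sided permutation test over the 70 assignments gave p = 0.914, where the smallest possible was 0.0286. Gene counts do not show which allele a sample carries.

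Between the alleles, 1473 of 9207 genes tested (16.0%) were called at an adjusted p under 0.05 by edgeR's quasi-likelihood test with Benjamini-Hochberg adjustment, the test behind every adjusted p below. In L854F, 663 genes (7.20%) were higher and 810 (8.80%) lower. Most differences were small. The median size among called genes was 0.48 on the log2 scale, and 763 of them (51.8%) were under 0.5. Differences of at least 1 on that scale, seen in 371 genes (4.03%), ran mostly downward in L854F, with 105 genes higher and 266 lower. They lay mostly among weakly expressed genes: 215 of the 266 averaged under 10 CPM in JmjC, and 69 of the 105 averaged under 10 CPM in L854F. Leaving out any sample except JmjC replicate 3 lowered the count, to between 977 (JmjC replicate 1) and 1343 (L854F replicate 3). Without JmjC replicate 3 it rose to 1725.

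WT lay on the L854F side for most of the genes that separate the alleles. Of the 1473 called genes, 1108 (75.2%) had a WT mean nearer to L854F than to JmjC on the log2 scale. Among the 7734 genes tested and not called the share was 58.3%. WT lay between both mutants for 890 called genes (60.4%), beyond L854F for 479 (32.5%) and beyond JmjC for 104 (7.06%). Genes lower in L854F had the share nearer L854F at 78.5%, and genes higher in L854F at 71.2%. These shares describe the called genes and were given no test. Against WT itself, L854F had 504 of 9105 genes called (5.54%) and JmjC 1602 of 9244 (17.3%). Both comparisons use the same WT samples.

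**Figure D1:**
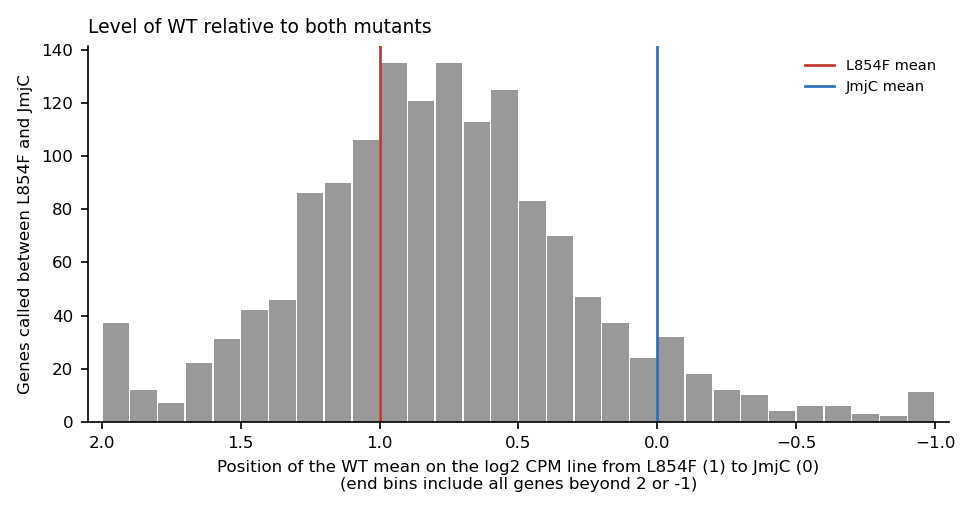
Position of the WT mean for the 1473 genes called between the alleles, with the L854F mean at 1 (red line, left) and the JmjC mean at 0 (blue line, right) on each gene's log2 CPM scale; bars count genes. The bulk of the bars lies around the L854F line, with 75.2% of the genes nearer to it, and 7.06% beyond the JmjC line.

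Several of the genes that rose most in L854F were nearly silent in both other groups. mthl8, a methuselah-like G protein-coupled receptor gene (FBgn0052475, 3L:22428-26308), stood at 73.9, 66.1, 62.1 and 80.0 CPM in L854F. JmjC had 1 count in its 4 samples together, and WT had none. The ratio of L854F to JmjC was 4594, with a 95% counting interval of 824 to 181500 (adjusted p 2.45e-10). Cyp12d1-d and Cyp12d1-p, neighbouring and near-identical cytochrome P450 genes on 2R, averaged 5.18 ± 1.72 and 5.40 ± 2.62 CPM in L854F. Their JmjC means were 0.0308 and 0.124 CPM, and their WT means 0.0297 and 0.544 CPM. For Cyp12d1-p each WT sample lay above each JmjC sample. Reads of this pair may be split between the copies. CG9150, annotated as an oxidoreductase, averaged 2.18 ± 0.851 CPM in L854F, 0.0766 CPM in JmjC and 0.0452 CPM in WT (adjusted p 0.000281). CG9737, annotated as a serine endopeptidase, averaged 2.60 ± 1.23 CPM in L854F, 0.184 CPM in JmjC and 0.270 CPM in WT (adjusted p 0.00106). These genes were chosen among those without overlap between L854F and JmjC samples, so that separation is no separate result. Over all genes tested, 1905 of 9207 (20.7%) had no overlap. CG15449 showed the same order, at 5.58 ± 2.78 CPM in L854F and 0.139 CPM in JmjC, but all 765 of its exon bases lie on the opposite strand of exons of Ntf-2, and the strand setting of the counting is not stated.

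Abundant genes showed the same pattern of a level in L854F that JmjC and WT did not share. CG11700 (FBgn0029856, X:6282037-6283575), annotated as a ubiquitin-type protein tag, stood at 216, 213, 207 and 222 CPM in L854F, against 44.5, 43.6, 49.97 and 33.4 CPM in JmjC. Its log2 change was 2.33 (SE 0.10, adjusted p 1.90e-07), and WT averaged 39.0 ± 5.07 CPM. CG7564 (FBgn0036734, 3L:17514298-17524740), annotated with mRNA splice site selection, stood at 645, 546, 521 and 735 CPM in L854F, against 155, 165, 151 and 157 CPM in JmjC. The fitted log2 change was 1.97 (SE 0.10, adjusted p 6.55e-07), and WT averaged 149 ± 8.58 CPM. BGI_novel_G000097, an identifier with no symbol or position, averaged 104 ± 16.2 CPM in L854F, 14.6 ± 2.52 CPM in JmjC and 20.8 ± 1.99 CPM in WT (log2 change 2.84, adjusted p 5.04e-07).

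In other large rises the WT samples overlapped those of L854F instead. CG42694, annotated as a serine endopeptidase, stood at 56.5, 63.6, 89.2 and 69.3 CPM in L854F, against 12.9 to 15.1 CPM in JmjC. WT averaged 52.0 ± 6.25 CPM, and the log2 change between the alleles was 2.36 (SE 0.13, adjusted p 1.08e-06). Ctl2, named as a choline transporter-like gene, stood at 408, 299, 313 and 400 CPM in L854F, against 133, 126, 189 and 76.7 CPM in JmjC. This gave a log2 change of 1.44 (SE 0.22, adjusted p 0.00121), and WT averaged 358 ± 32.8 CPM, the L854F level. CG12592 averaged 8.33 ± 2.94 CPM in L854F, while JmjC had counts in replicate 3 only, at 1.04 CPM (adjusted p 0.000948), and WT averaged 5.15 ± 3.28 CPM. CG15864, annotated as a procollagen-proline dioxygenase, averaged 5.59 ± 1.91 CPM in L854F. In JmjC, replicate 2 had 2.36 CPM and the rest 0 (adjusted p 0.0274), and WT averaged 6.27 ± 0.914 CPM. The call was lost with DESeq2 (adjusted p 0.298) and without any of L854F replicates 2, 3 and 4 or JmjC replicates 1 and 4. BGI_novel_G000109 averaged 11.9 ± 4.28 CPM in L854F and 1.58 ± 1.52 CPM in JmjC (adjusted p 0.00521), with WT samples between 0 and 8.54 CPM.

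Among the largest falls, CG32641 was the gene with no count in L854F and like levels in JmjC and WT. CG32641 (FBgn0052641, X:13184478-13184996) stood at 0 in every L854F sample, against 8.87, 7.09, 8.91 and 5.95 CPM in JmjC. With a floor of 3 counts per library it was at least 41.0-fold lower in L854F (adjusted p 7.64e-06), and WT averaged 7.39 ± 0.361 CPM. Counting intervals and floors cover counting error only, since PCR reads without molecular identifiers are not independent molecules.

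For thw, CG32572 and CG15930 the JmjC samples stood high and WT stood near L854F. thw (FBgn0037487, 3R:7224414-7241138), annotated with chitin binding, stood at 0.612, 0.813, 0.729 and 0.787 CPM in L854F, against 23.1, 22.6, 23.4 and 26.7 CPM in JmjC. On the log2 scale it changed by -5.01 (SE 0.13, adjusted p 1.29e-09), and WT averaged 0.723 ± 0.396 CPM. CG32572 averaged 0.0933 ± 0.0604 CPM in L854F, 3.87 ± 0.804 CPM in JmjC and 0.150 CPM in WT (log2 change -5.25, adjusted p 4.96e-06). It shares 212 exon bases with CG34325 on the opposite strand. CG15930 averaged 0.190 ± 0.120 CPM in L854F, 4.80 ± 1.76 CPM in JmjC and 0.273 CPM in WT (log2 change -4.61, adjusted p 5.01e-05). CG12716, annotated with eggshell formation, averaged 0.311 ± 0.180 CPM in L854F, 11.6 ± 2.55 CPM in JmjC and 1.54 ± 0.417 CPM in WT (log2 change -5.17, adjusted p 1.44e-06). WT lay between the alleles for CG12716, and L854F was lower than WT as well (log2 change -2.27, adjusted p 0.00649). These 4 genes were likewise chosen among those without overlap between L854F and JmjC samples.

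Among called genes averaging at least 50 CPM in the higher group, the largest falls included a hairpin RNA and its neighbour. hpRNA:CR46342 (FBgn0285992, X:4921677-4928133) stood at 62.8, 122, 114 and 97.1 CPM in L854F, against 422, 463, 474 and 443 CPM in JmjC. The log2 difference came to -2.18 (SE 0.16, adjusted p 7.64e-06), with WT at 141 ± 10.5 CPM. CG44774 (FBgn0266000, X:4926664-4938105), on the same strand, shares 1469 exon bases with it, so the split of reads between them is uncertain. CG44774 averaged 280 ± 22.7 CPM in L854F, 649 ± 52.1 CPM in JmjC and 208 ± 14.6 CPM in WT (log2 change -1.20, adjusted p 2.86e-06). CG9360, annotated as an oxidoreductase, averaged 14.9 ± 5.93 CPM in L854F, 56.4 ± 7.01 CPM in JmjC and 33.5 ± 3.43 CPM in WT (log2 change -1.92, adjusted p 0.000196). WT lay between the alleles for CG9360, and so it did for BGI_novel_G000096, an identifier without a position, at 0.316 ± 0.507 CPM in L854F, 57.2 ± 26.0 CPM in JmjC and 2.35 ± 1.01 CPM in WT.

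**Figure D2:**
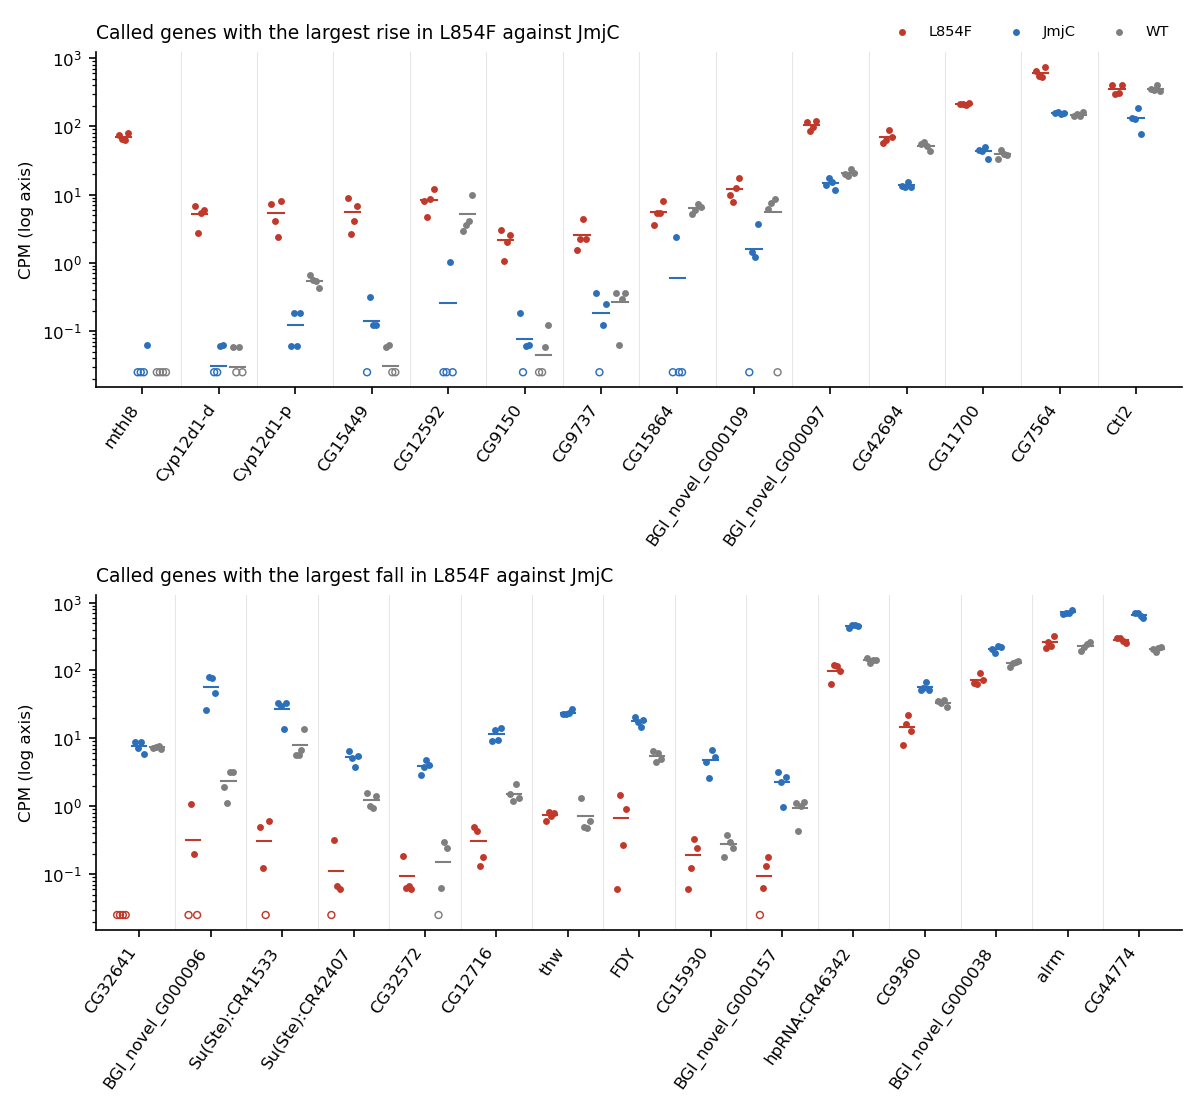
CPM per sample on a log axis for the genes with the largest rise (top) and the largest fall (bottom) in L854F against JmjC, with L854F in red, JmjC in blue and WT in grey from left to right; horizontal lines are means of 4 samples and open circles at the bottom mark samples with 0 counts. mthl8, CG11700 and CG7564 have WT at the JmjC level, while Ctl2, CG42694, thw and alrm have WT at the L854F level.

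Grouped by function, 883 tested genes belonged to at least 1 of 41 lists, and 164 of them were called, 83 higher and 81 lower in L854F. Over all genes tested 16.0% were called, 7.20% higher and 8.80% lower, and each list count is to be read beside these shares. Histone copies with identical values each count among the 81, though they are 1 measurement. Members of the germline, histone, cell cycle and heat shock lists that were called ran mostly lower in L854F. Heat shock calls were even in direction in the fit of all 12 samples. Called members of the neuronal surface protein, neuropeptide, neuropeptide receptor and proteasome lists ran mostly higher. Cytosolic ribosomal proteins, oxidative phosphorylation subunits, synaptic vesicle genes and neuronal markers held few calls or none.

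**Figure D3:**
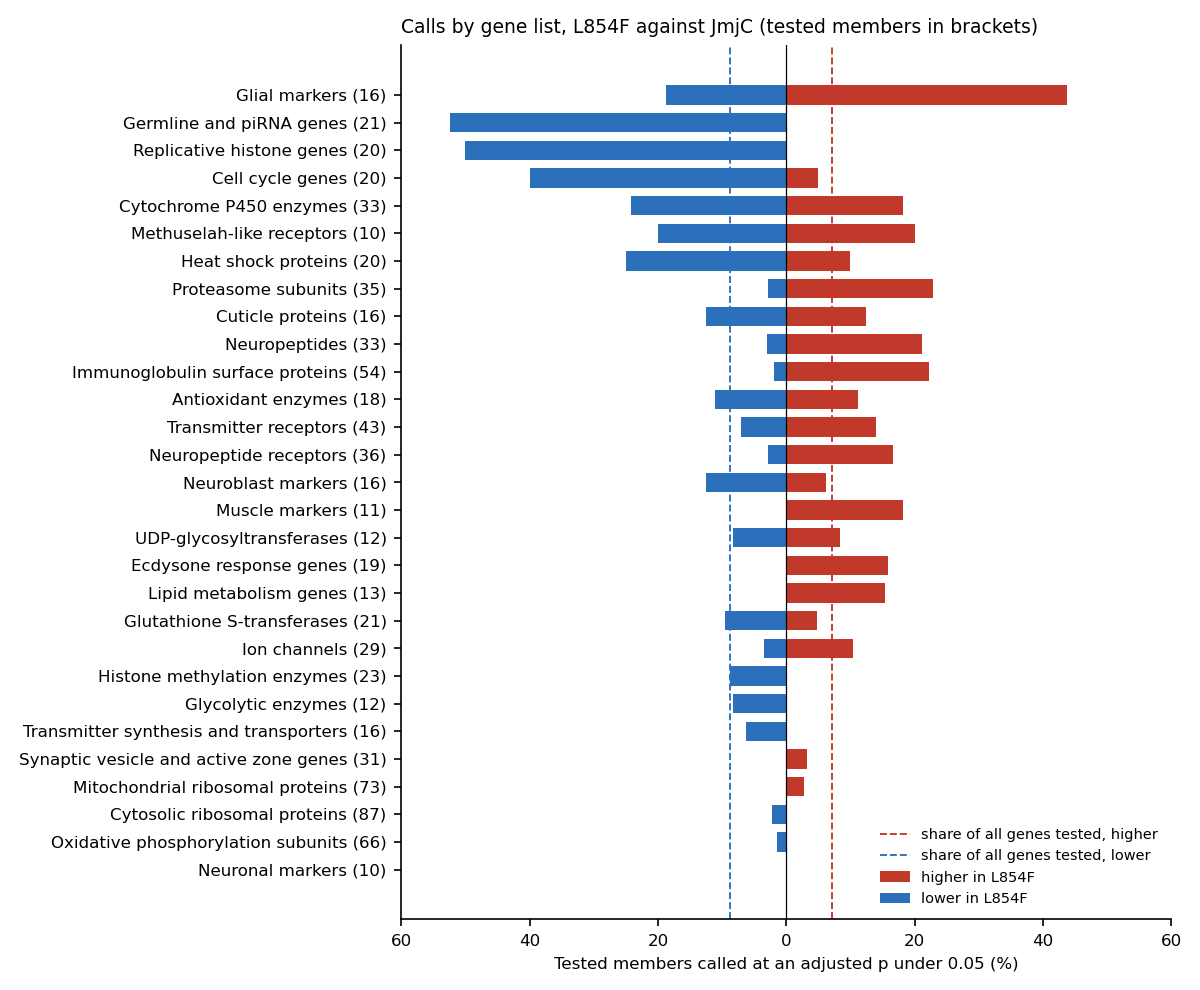
Share of tested members called higher (red, to the right) or lower (blue, to the left) in L854F against JmjC, in percent, for each list with at least 10 tested members, whose number stands in brackets. Dashed lines mark the shares over all genes tested, 7.20% higher and 8.80% lower; the germline list has bars to the left only, at 11 of 21.

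Genes of the germline and of the piRNA pathway, which silences transposons in gonads, were lower in L854F in 11 of 21 tested members, and none was called higher. The median log2 change was -0.62, against 0.0016 over all genes tested. At an unadjusted p under 0.05, which 30.4% of all genes reached (14.7% higher, 15.7% lower), 13 members were lower and 1 higher, and DESeq2 called 12 lower and 0 higher. bam (bag of marbles), which drives differentiation of germline cysts, stood at 1.10, 1.13, 0.663 and 0.847 CPM in L854F, against 11.6, 9.02, 9.70 and 11.4 CPM in JmjC. Its fitted log2 difference was -3.46 (SE 0.19, adjusted p 9.55e-07), and WT samples lay between 1.13 and 1.76 CPM. aub, a piRNA-binding Argonaute protein gene, stood at 1.84, 1.81, 1.79 and 2.00 CPM in L854F, against 7.22, 7.53, 7.51 and 8.56 CPM in JmjC. Its log2 change was -2.04 (SE 0.14, adjusted p 4.96e-06), and WT samples lay between 1.76 and 2.88 CPM. For both genes the L854F samples lay well below JmjC. Those of aub lay within the WT range. For bam, L854F replicates 1 and 2 lay at the lower end of the WT range and replicates 3 and 4 below it.

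The remaining called members behaved alike in direction and varied in where WT lay. vas, a germline RNA helicase gene, had a log2 change of -2.12 (adjusted p 0.000941), with L854F between 0.530 and 1.15 CPM and JmjC between 2.61 and 4.59 CPM. osk, which assembles germ plasm in the oocyte, had 1 L854F sample at 0 and the rest at 0.123, 0.199 and 0.501 CPM, against 1.04 to 2.61 CPM in JmjC (log2 change -2.92, adjusted p 0.00645). squ fell by 1.05 on the log2 scale (adjusted p 0.000494), spn-E by 0.67 (adjusted p 0.00170), vret by 0.62 (adjusted p 0.00226) and mael by 0.89 (adjusted p 0.0334). squ lies within grp on the same strand and shares 223 exon bases with it. piwi, the nuclear piRNA effector gene, fell by 1.56 (adjusted p 0.0111), with WT samples spread between 0.182 and 1.84 CPM. For del and krimp, WT lay with or above JmjC. del, whose product licenses piRNA cluster transcription, stood at 5.27, 6.07, 8.09 and 7.08 CPM in L854F, against 13.5, 12.1, 10.7 and 11.1 CPM in JmjC and 10.9 to 13.4 CPM in WT. tud, armi, tapas and gcl, the members above 20 CPM, were not called. Against WT, L854F had none of 19 germline members called higher and 2 lower, where 3.04% and 2.49% of all genes were called. JmjC had 7 of 21 higher and 1 lower, where 9.66% and 7.67% were. vas and osk were tested against WT in JmjC only, with log2 changes of 2.35 and 3.21. Both passed the count filter through their JmjC level, and both count among these 7 and among the 11 called between the alleles.

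**Figure D4:**
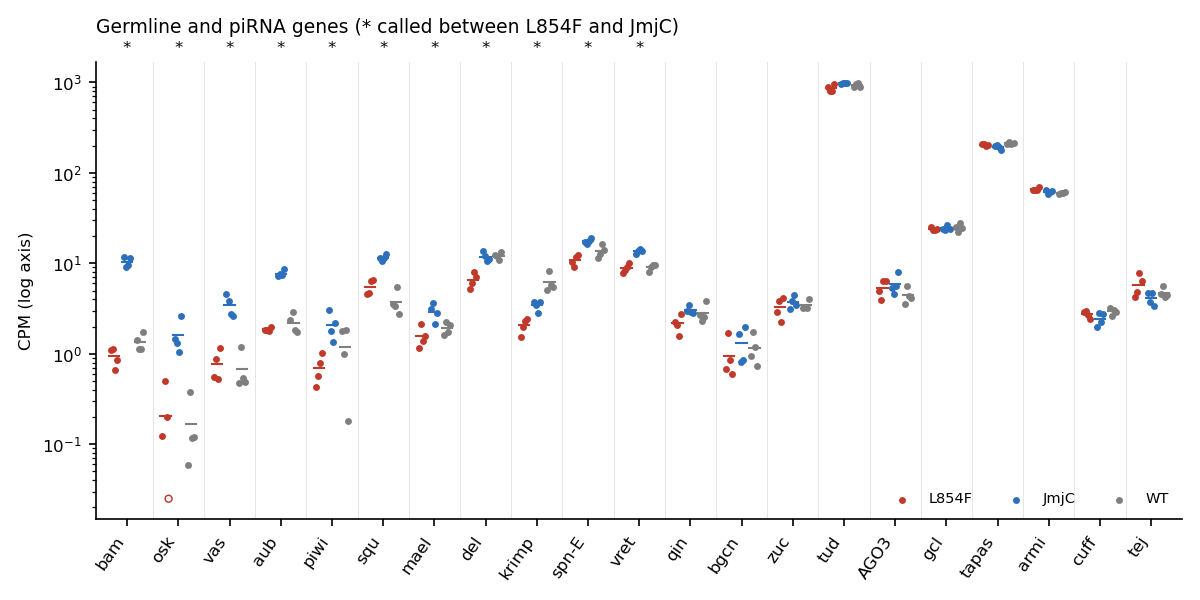
CPM per sample on a log axis for the 21 tested germline and piRNA genes, with L854F in red, JmjC in blue and WT in grey from left to right; lines are means of 4 samples, the open circle is a sample with 0 counts, and stars mark the 11 members called between L854F and JmjC. Called members lie to the left, with L854F below JmjC, and the abundant members tud, tapas, armi and gcl show overlapping levels.

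Single members of the ribosomal protein, proteasome and oxidative phosphorylation lists had large differences. RpS5b, a paralogue of the ribosomal protein gene RpS5a with high expression in the female germline, stood at 8.76, 11.8, 15.5 and 8.65 CPM in L854F, against 37.3, 34.5, 35.9 and 36.0 CPM in JmjC. The fitted log2 change was -1.68 (SE 0.15, adjusted p 3.64e-05), and WT samples lay between 9.23 and 12.3 CPM. RpS10a averaged 0.328 ± 0.101 CPM in L854F, 3.97 ± 0.836 CPM in JmjC and 0.197 CPM in WT (log2 change -3.56, adjusted p 1.65e-05), and lies within tau on the opposite strand without sharing exons. These were the only cytosolic ribosomal protein genes called, 2 of 87, with 3 lower and 0 higher at an unadjusted p under 0.05 and DESeq2 also calling 2. Rpt3R, a testis paralogue of a proteasome ATPase, stood at 1.96, 1.75, 1.86 and 2.18 CPM in L854F, against 5.26, 4.60, 4.70 and 4.59 CPM in JmjC (log2 change -1.30, adjusted p 0.000396). ATPsynepsilonL, a paralogue of an ATP synthase subunit gene, was the only called member of 66 oxidative phosphorylation genes, at 0.125 to 0.464 CPM in L854F, against 1.31 to 1.80 CPM in JmjC (log2 change -2.35, adjusted p 0.00123). In each of these 4 genes the samples of the alleles did not overlap, as in 20.7% of all genes tested. WT lay within or near the L854F range in all 4. The oxidative phosphorylation list had 1 higher and 4 lower with DESeq2, 1 higher and 3 lower with the replicate block, 1 higher and 2 lower without L854F replicate 1, 4 lower without L854F replicate 3, and 2 lower without L854F replicate 2 or 4 or without JmjC replicate 2. Rpt6R, likewise a testis paralogue of a proteasome ATPase, was higher, at 5.08, 2.75, 1.86 and 2.12 CPM in L854F, against 1.35, 1.43, 1.22 and 0.372 CPM in JmjC (log2 change 1.44, adjusted p 0.0375).

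Transcripts of the Y chromosome were low in L854F and high in JmjC, with WT between them. All 6 tested Y genes were called lower, 5 of them copies of the repeated Suppressor of Stellate locus, a source of piRNAs in testes. Their means lay between 0.0464 and 2.37 CPM in L854F and between 1.65 and 40.4 CPM in JmjC. They passed the count filter through JmjC, so that all were lower is no separate result. Of 25 Stellate and Suppressor of Stellate genes, 6 were tested and 19 stayed under 1 CPM in all 12 samples. FDY (FBgn0265047, Y:3022289-3024024) stood at 0.0612, 1.44, 0.265 and 0.908 CPM in L854F, against 20.4, 17.7, 14.5 and 18.5 CPM in JmjC. This gave a log2 change of -4.70 (SE 0.40, adjusted p 2.21e-05), and WT averaged 5.52 ± 0.978 CPM. The Stellate and Suppressor of Stellate genes, near-identical copies whose reads may be split, summed to between 1.59 and 7.44 CPM in L854F, between 63.5 and 93.9 CPM in JmjC and between 19.7 and 34.5 CPM in WT. The largest single change was that of Su(Ste):CR41533, with a log2 change of -6.42 (adjusted p 6.16e-06). Male dosage compensation genes moved much less, with 1 of 8 called, and 2 with the block or without JmjC replicate 3. roX2, a noncoding RNA of male X chromosomes, stood at 18.3, 21.5, 16.2 and 20.4 CPM in L854F, against 29.3, 25.6, 28.1 and 29.2 CPM in JmjC (log2 change -0.55, adjusted p 0.00223). roX1 averaged 781 CPM in L854F and 914 CPM in JmjC, and the samples overlapped (log2 change -0.22, adjusted p 0.140). The sex of the larvae is not given, so the number of male larvae per sample and the RNA from each cannot be told apart, and the part of either in the germline genes was not tested.

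Most of the replicative histone and cell cycle genes that were called were lower in L854F. Of 20 tested histone copies 10 were called lower, all of them His2B, but 9 carry identical values in every sample and count as 1 measurement. That value stood at 0.429, 0.501, 0.796 and 0.484 CPM in L854F, against 1.77, 2.61, 1.83 and 1.92 CPM in JmjC (log2 change -1.87, adjusted p 0.00124). No histone was called higher, at an unadjusted p under 0.05 or by DESeq2. Of 89 copies with counts, 74 stayed under 1 CPM in all 12 samples. Against WT, 11 copies passed the count filter with JmjC and 1 with L854F. Copies that passed through their JmjC level could hardly be called higher in L854F, so the shared direction is no separate result. Most replicative histone transcripts are not polyadenylated, which limits what a poly(A) library holds of them. Among 20 cell cycle genes, 8 were called lower and 1 higher, with a median log2 change of -0.11.

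The called cell cycle genes act mainly in mitosis, and their differences were small. CycB, the mitotic cyclin B gene, stood at 81.2, 82.0, 79.0 and 80.0 CPM in L854F, against 109, 102, 93.6 and 108 CPM in JmjC. On the log2 scale it changed by -0.35 (SE 0.06, adjusted p 0.00202), and WT samples lay between 68.7 and 79.9 CPM. Cdk1, the kinase partner of cyclin B, had a log2 change of -0.43 (SE 0.08, adjusted p 0.00340), with L854F between 40.1 and 47.1 CPM and JmjC between 53.5 and 65.0 CPM. borr, a chromosomal passenger complex subunit gene, had a log2 change of -0.44 (SE 0.07, adjusted p 0.00248), with L854F between 20.5 and 25.3 CPM, JmjC between 30.5 and 33.0 CPM and WT between 16.2 and 18.3 CPM. aurA, Incenp, polo, tum and fzy also fell, by between 0.19 and 0.35, and Mcm2, a replication licensing factor gene, rose by 0.21 (adjusted p 0.0299). Against WT, L854F had 2 of 20 called higher and none lower, where 3.04% and 2.49% of all genes were called. JmjC had 8 higher and none lower, where 9.66% and 7.67% of all genes were called. The count was sensitive to single samples: it was 3 without L854F replicate 1 or 4 or without JmjC replicate 1 or 2, and 5 without L854F replicate 3 or without JmjC replicate 3 or 4. CycB, Cdk1 and borr kept their calls in each of these fits.

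Neuroblast markers did not move together. The median log2 change over 16 members was 0.0034, and 3 were called (18.8%, against 16.0% of all genes tested). cas, a late temporal factor of neuroblasts, fell by 0.30 (adjusted p 0.0171), chinmo, a marker of early-born neurons, fell by 0.28 (adjusted p 0.0426), and mira, the adaptor that carries cell fate determinants, rose by 0.27 (adjusted p 0.0408). The stem cell factors dpn and wor had log2 changes of 0.03 (adjusted p 0.883) and -0.01 (adjusted p 0.967). The 3 calls fell to 0 without L854F replicate 1, to 1 without L854F replicate 2 or without JmjC replicate 2 or 4, and rose to 5 without L854F replicate 4. No Hox gene was called of 7 tested with edgeR, with 1 higher and 1 lower at an unadjusted p under 0.05 and none with DESeq2, and 3 were called with the replicate number as a block. Without L854F replicate 1 or 3 there was 1 Hox call.

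Immunoglobulin-domain surface proteins of neurons were higher in L854F in 12 of 54 tested members and lower in 1. The list holds the dpr genes and their partners the DIP genes, and the beat genes with their side partners, which bind in pairs across neuronal membranes and take part in the choice of synaptic partners. Its median log2 change was 0.12, and 42 of 54 changes were positive. dpr11 stood at 155, 151, 147 and 163 CPM in L854F, against 127, 127, 114 and 121 CPM in JmjC, with WT between 140 and 165 CPM. The log2 difference came to 0.34 (SE 0.06, adjusted p 0.00225). beat-VI stood at 181, 174, 157 and 183 CPM in L854F, against 144, 135, 133 and 128 CPM in JmjC (log2 change 0.37, SE 0.06, adjusted p 0.00229). DIP-theta stood at 44.5, 45.5, 43.7 and 45.4 CPM in L854F, against 35.0, 38.1, 35.7 and 32.4 CPM in JmjC (log2 change 0.35, SE 0.06, adjusted p 0.00278). In these 3 genes, which had the smallest adjusted p of the list, each L854F sample lay above each JmjC sample. The groups did not overlap in 15 of the 54 members, and in 20.7% of all genes tested.

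The called members came from 3 of the 4 families. Besides dpr11, dpr3, dpr17 and dpr21 rose, by between 0.30 and 0.37 on the log2 scale, and dpr18 was the member that fell, by 0.37 (adjusted p 0.0326), with overlapping samples. DIP-iota had the largest change, 0.65 (adjusted p 0.0131), with L854F between 6.78 and 8.76 CPM and JmjC between 4.10 and 5.80 CPM. DIP-lambda, DIP-epsilon and DIP-delta rose by 0.48, 0.31 and 0.23, and beat-Ia and beat-IV by 0.20 and 0.18. Against WT, L854F had 1 of 54 members called lower and none higher, where 2.49% and 3.04% of all genes were called. JmjC had 10 lower and none higher, where 7.67% and 9.66% of all genes were called. Without JmjC replicate 2, 8 members were called, all of them higher.

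Neuropeptide genes were higher in L854F in 7 of 33 tested members and lower in 1, with a median log2 change of 0.10. Ilp6, an insulin-like peptide gene expressed in fat body and glia, stood at 71.5, 59.7, 62.0 and 66.9 CPM in L854F, against 40.6, 42.3, 42.7 and 33.3 CPM in JmjC. Its fitted log2 difference was 0.72 (SE 0.09, adjusted p 0.000304), and WT samples lay between 57.3 and 67.4 CPM. Gpa2, a glycoprotein hormone subunit gene, stood at 44.0, 55.2, 65.8 and 56.1 CPM in L854F, against 26.0, 29.98, 27.5 and 43.1 CPM in JmjC (log2 change 0.81, SE 0.16, adjusted p 0.00510). AstA, the allatostatin A gene, stood at 64.6, 76.1, 66.2 and 67.3 CPM in L854F, against 55.5, 56.1, 52.0 and 56.3 CPM in JmjC (log2 change 0.32, SE 0.06, adjusted p 0.00527). The diuretic hormone genes Dh31 and Dh44 rose by 0.48 (adjusted p 0.00761) and 0.28 (adjusted p 0.0182), and Nplp1, a precursor of several peptides, rose by 0.33 (adjusted p 0.00827).

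Pdf and Lk differed from the others in where WT lay. Pdf, the pigment dispersing factor gene, stood at 116, 111, 98.2 and 115 CPM in L854F, against 81.7, 81.6, 51.0 and 85.1 CPM in JmjC, and WT lay between 63.3 and 77.9 CPM (log2 change 0.56, adjusted p 0.0168). Lk, the leucokinin gene, stood at 103, 123, 99.5 and 101 CPM in L854F, against 146, 138, 124 and 157 CPM in JmjC and 141 to 163 CPM in WT. It was the called member that fell, by 0.40 (adjusted p 0.00907). Against WT, L854F had 5 of 33 peptide genes called lower and 1 higher, where 2.49% and 3.04% of all genes were called. JmjC had 13 lower and none higher, where 7.67% and 9.66% of all genes were called.

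Receptors for neuropeptides were called higher in L854F in 6 of 36 members and lower in 1, and 32 of 36 log2 changes were positive, with a median of 0.16. TkR99D, a tachykinin receptor gene, was the exception and had the smallest adjusted p of the list. It stood at 40.8, 39.9, 41.1 and 42.2 CPM in L854F, against 85.0, 75.5, 89.1 and 77.3 CPM in JmjC and 35.2 to 36.1 CPM in WT. Its log2 change was -0.99 (SE 0.06, adjusted p 3.09e-06), and the groups lay far apart with little spread inside each. RYa-R had a log2 change of 1.04 (SE 0.21, adjusted p 0.00640), with L854F between 5.63 and 8.76 CPM and JmjC between 2.42 and 4.29 CPM. AstC-R1 had a log2 change of 0.74 (SE 0.15, adjusted p 0.00747), and Lkr, the leucokinin receptor gene, one of 0.47 (SE 0.10, adjusted p 0.00959). Without L854F replicate 1, or without JmjC replicate 4, 3 were called higher and 1 lower.

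**Figure D5:**
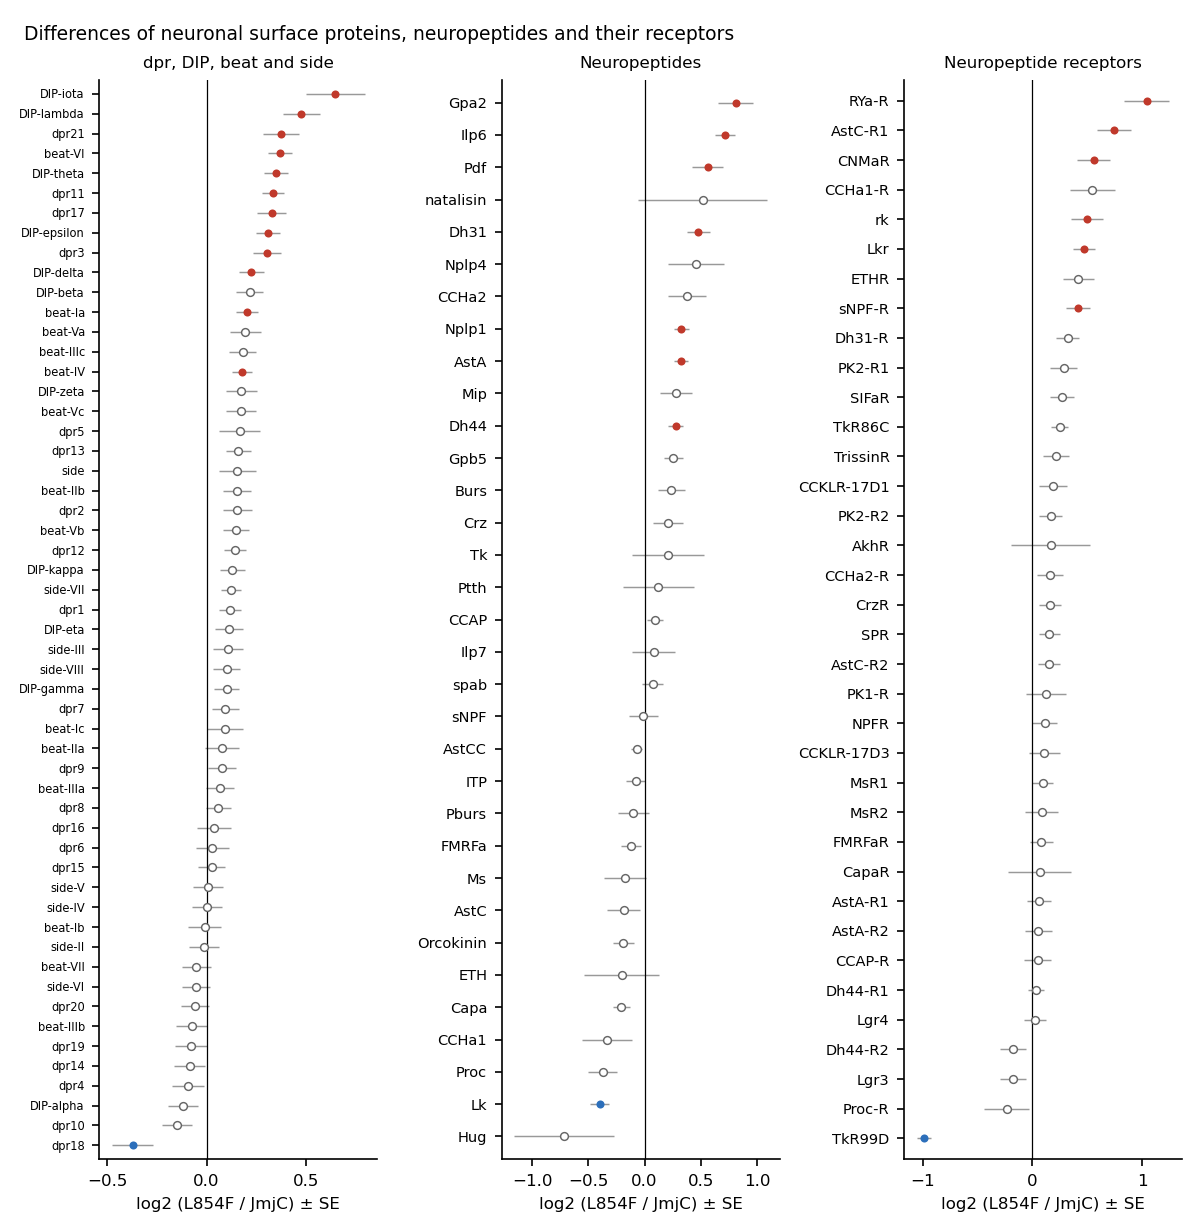
Log2 change of L854F over JmjC with its standard error for each tested member of the dpr, DIP, beat and side families (left), neuropeptides (middle) and neuropeptide receptors (right); filled red points are called higher, filled blue points called lower, and open points not called. Points right of 0 prevail in the left and right panels, and TkR99D at -0.99 stands apart at the bottom of the receptors.

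Transmitter receptors and ion channels held calls in both directions. Among 43 transmitter receptors, 6 were called higher and 3 lower, and with the replicate number as a block 7 were higher and 11 lower. GluRIA and GluRIB, AMPA-type glutamate receptor genes, rose. GluRIA stood at 105, 94.6, 94.8 and 96.1 CPM in L854F, against 78.2, 74.2, 80.6 and 73.1 CPM in JmjC (log2 change 0.36, SE 0.06, adjusted p 0.00182), and GluRIB had a log2 change of 0.30 (SE 0.06, adjusted p 0.00738). Lcch3, a GABA receptor subunit gene, rose by 0.19 (adjusted p 0.0171), and it shares 456 exon bases with Ranbp16 on the opposite strand. mGluR, the metabotropic glutamate receptor gene, fell by 0.31 (adjusted p 0.0309), Octalpha2R by 0.20 (adjusted p 0.0322) and nAChRbeta2 by 0.19 (adjusted p 0.0439). Without L854F replicate 1 the calls were 3 higher and 1 lower. They were 5 higher and none lower without L854F replicate 2 or without JmjC replicate 1, and 3 higher and none lower without JmjC replicate 2 or 4.

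Of 29 ion channel genes 3 were called higher and 1 lower (13.8% called, against 16.0% of all genes tested). With the replicate block 4 were higher and 5 lower. Irk2, an inward rectifier potassium channel gene, stood at 20.9, 22.9, 22.7 and 24.3 CPM in L854F, against 8.32, 7.84, 12.6 and 6.70 CPM in JmjC. The fitted log2 change was 1.36 (SE 0.16, adjusted p 0.000247), and WT samples lay between 17.3 and 24.3 CPM, on the L854F range. Its relative Irk1, which shares 3202 exon bases with CG46310 on the same strand, had a log2 change of 0.86 (SE 0.19, adjusted p 0.0111). NaCP60E, a sodium channel-like gene, stood at 324, 337, 302 and 374 CPM in L854F, against 479, 517, 434 and 502 CPM in JmjC and 311 to 374 CPM in WT. This gave a log2 change of -0.53 (SE 0.08, adjusted p 0.000943). Without JmjC replicate 3 the count of channels was 3 higher and 6 lower.

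The core machinery of synaptic release was mostly not called. Of 31 synaptic vesicle and active zone genes, 1 was called, against 5 lower and 1 higher at an unadjusted p under 0.05, and the replicate block gave 1 higher and 5 lower. DESeq2 called 1 higher and 3 lower, and without L854F replicate 4 or JmjC replicate 3 there were 1 higher and 2 lower. Nlg1, a neuroligin of postsynaptic membranes, stood at 8.39, 6.94, 12.5 and 5.93 CPM in L854F, against 1.65, 1.74, 1.71 and 2.73 CPM in JmjC. On the log2 scale it changed by 2.11 (SE 0.26, adjusted p 0.000338), and WT lay between the alleles at 3.10 to 3.76 CPM. None of the 10 neuronal markers was called with edgeR, while at an unadjusted p under 0.05 there were 1 higher and 3 lower, as with DESeq2 and with the replicate block. Without JmjC replicate 3 there were 3 lower, and without L854F replicate 3 or 4 there was 1 call. Among 16 genes of transmitter synthesis and transport, Trhn, the neuronal tryptophan hydroxylase gene that starts serotonin synthesis, was called, at 9.25, 10.6, 11.3 and 11.1 CPM in L854F, against 15.8, 15.5, 17.9 and 19.3 CPM in JmjC (log2 change -0.69, SE 0.10, adjusted p 0.00122). WT lay between 12.6 and 17.7 CPM, overlapping JmjC. The block gave 4 such genes lower, without JmjC replicate 3 there were 5 lower, and without L854F replicate 2 or JmjC replicate 2 there were 2 calls, 1 in each direction.

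Glial markers were called in 10 of 16 members, in opposite directions. alrm (FBgn0039332, 3R:25381065-25382781), a marker of astrocyte-like glia, stood at 217, 262, 233 and 324 CPM in L854F, against 679, 708, 701 and 776 CPM in JmjC. The log2 difference came to -1.46 (SE 0.11, adjusted p 8.44e-06), and WT averaged 229 ± 26.9 CPM. Gat, the GABA transporter gene of astrocytes, stood at 204, 260, 243 and 330 CPM in L854F, against 380, 439, 367 and 519 CPM in JmjC, with WT between 286 and 362 CPM (log2 change -0.71, adjusted p 0.00618). Tret1-1, a trehalose transporter gene of perineurial glia, had a log2 change of -0.88 (SE 0.15, adjusted p 0.00219). Other astrocyte genes did not follow, since Eaat1 had a log2 change of -0.04 (adjusted p 0.715) and Gs2 one of -0.36 (adjusted p 0.235).

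The 7 glial markers that rose belong to several glial classes. e (ebony), a beta-alanyl amine synthase gene of glia, stood at 72.6, 75.1, 63.7 and 65.4 CPM in L854F, against 46.6, 49.0, 53.6 and 40.4 CPM in JmjC, with WT between 65.8 and 75.2 CPM (log2 change 0.55, SE 0.09, adjusted p 0.00177). moody and Gli, which act in the septate junctions of the blood-brain barrier, rose by 0.39 (adjusted p 0.00594) and 0.47 (adjusted p 0.0171), and wrapper, a glial surface protein gene, by 0.24 (adjusted p 0.0195). htl, axo and loco rose by between 0.24 and 0.34. repo, the transcription factor of most glia, stood at 160, 169, 150 and 145 CPM in L854F, against 180, 180, 177 and 170 CPM in JmjC, and was not called (log2 change -0.18, adjusted p 0.0634). Without JmjC replicate 1, 3 markers were higher and 3 lower. Against WT, L854F had no glial marker called higher and 1 lower, where 3.04% and 2.49% of all genes were called. JmjC had 3 higher and 6 lower, where 9.66% and 7.67% of all genes were called.

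Cytochrome P450 genes, whose products oxidise hormones and foreign compounds, were called in 14 of 33 members, 6 higher and 8 lower in L854F. Besides the Cyp12d1 pair, Cyp6a13 stood at 15.7, 16.2, 14.4 and 15.7 CPM in L854F, against 2.94, 3.55, 4.76 and 2.11 CPM in JmjC and 12.6 to 14.8 CPM in WT (log2 change 2.22, SE 0.19, adjusted p 2.49e-05). Cyp4d2 fell by 0.78 (adjusted p 0.00150), and Cyp28a5 had the largest fall among called members, 1.75 (adjusted p 0.00167), with L854F between 5.63 and 13.1 CPM and JmjC between 24.1 and 53.5 CPM. Without JmjC replicate 2 or 4, 3 were higher and 6 lower. Methuselah-like receptors had 4 of 10 called: mthl8 and mthl10 rose, and mth and mthl15 fell, by 0.42 and 0.99. GstS1 rose by 0.35 (adjusted p 0.00536) while GstD9 and GstO1 fell. They made 3 of 21 glutathione S-transferases called (14.3%, against 16.0% of all genes tested). That count was 1 without L854F replicate 1 or 2 or without JmjC replicate 4. UDP-glycosyltransferases had 2 of 12 called (16.7%, against 16.0% of all genes tested). Ugt36D1 was higher (log2 change 0.86, adjusted p 0.000296) and Ugt49C1 lower (-1.38, adjusted p 0.0188). The Ugt49C1 call was lost without L854F replicate 2 or JmjC replicate 2.

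Transport and storage genes held single large differences. acs, an amino acid transporter list member, stood at 8.45, 8.26, 8.55 and 8.47 CPM in L854F, against 1.16, 1.31, 1.77 and 0.682 CPM in JmjC, with WT between 6.82 and 9.53 CPM. Its fitted log2 difference was 2.77 (SE 0.22, adjusted p 1.37e-05). mnd (minidiscs), an amino acid transporter gene, rose by 0.48 (SE 0.06, adjusted p 0.000438), and sbm fell by 0.31 (adjusted p 0.00676), which made 3 calls among 9 members, and 2 higher and 3 lower with the block. Lsd-1, a lipid droplet perilipin gene, rose by 0.65 (SE 0.10, adjusted p 0.00111), with L854F between 17.7 and 19.4 CPM and JmjC between 10.3 and 13.2 CPM. mdy, a diacylglycerol acyltransferase gene, rose by 0.76 (adjusted p 0.0232), a call lost without L854F replicate 1, 3 or 4 or JmjC replicate 2. They were the only calls among 13 lipid metabolism genes (15.4%, against 16.0% of all genes tested). With the block 3 lipid genes were higher and 1 lower. All 12 tested glycolytic genes had negative log2 changes with a median of -0.27, but edgeR called 1, Ldh, whose samples overlapped and whose call was lost with DESeq2. With the replicate block 7 glycolytic genes were lower, and without JmjC replicate 3 there were 8. No member was called without L854F replicate 1 or 4 or without JmjC replicate 1, 2 or 4.

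Proteasome subunit genes were higher in L854F in 8 of 35 members, and 32 of 35 log2 changes were positive, with a median of 0.16. Rpt3R was the member called lower. Under the replicate block 17 were higher and 1 lower, DESeq2 called 13 higher and 1 lower, and 19 were higher at an unadjusted p under 0.05, as were 14.7% of all genes. Rpn10, a ubiquitin receptor of the proteasome, stood at 206, 210, 207 and 193 CPM in L854F, against 171, 168, 184 and 161 CPM in JmjC, with WT between 175 and 205 CPM. Its log2 change was 0.26 (SE 0.06, adjusted p 0.00905). Rpn8 rose by 0.30 (SE 0.06, adjusted p 0.00991), and Rpn2, Rpn3, Rpn11, Rpt5 and Prosbeta5 rose by between 0.22 and 0.30. The count of higher members was 2 without JmjC replicate 2, 3 without JmjC replicate 1 or without L854F replicate 1 or 2, 4 without JmjC replicate 4 and 16 without JmjC replicate 3. JmjC replicate 3 had the highest JmjC level of Rpn10 and of Rpn8.

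Heat shock genes were called in 7 of 20 members, 2 higher and 5 lower, with a median log2 change of -0.30. Hsp23, a small heat shock protein gene, stood at 3420, 3170, 3061 and 3154 CPM in L854F, against 2743, 2308, 2606 and 2277 CPM in JmjC (log2 change 0.37, SE 0.08, adjusted p 0.00799). WT lay below both, between 1707 and 2093 CPM. Hsp22 stood at 59.0, 72.7, 79.6 and 54.5 CPM in L854F, against 130, 155, 93.3 and 148 CPM in JmjC and 26.5 to 69.5 CPM in WT (log2 change -0.98, SE 0.16, adjusted p 0.00174). All 1900 exon bases of Hsp22 are shared with CG4456 on the same strand, so the split of reads is uncertain. Over the 12 samples CG4456 had 41 counts and Hsp22 15560. Hsp68 and Hsp70Ab also fell, by 0.93 and 1.03 with adjusted p of 0.0244 and 0.0300, but JmjC replicate 3, at 188 and 612 CPM, lay within or below the L854F samples. The Hsp70 genes are near-identical copies, and reads may be split among them. The list had 3 higher and 10 lower without JmjC replicate 3, 1 higher and 3 lower without L854F replicate 1, and 2 of each without L854F replicate 4. Without JmjC replicate 1, 2 or 4 there were 1 higher and 2 lower. The fit of all 12 samples gave 3 higher and 3 lower, robust dispersion 2 higher and 3 lower, and DESeq2 4 higher and 6 lower.

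Ecdysone response genes had 3 of 19 called, all higher in L854F. That share, 15.8%, was near the 16.0% called over all genes tested. Eip78C, a nuclear receptor gene induced by ecdysone, stood at 99.2, 81.3, 82.0 and 93.7 CPM in L854F, against 55.5, 54.2, 66.3 and 28.4 CPM in JmjC, with WT between 64.3 and 76.0 CPM. The fitted log2 change was 0.81 (SE 0.20, adjusted p 0.0174). ImpE1 and ImpE3, ecdysone-inducible genes of imaginal discs, rose by 0.70 (adjusted p 0.0350) and 0.90 (adjusted p 0.0192). ImpE3 lies within CG2747 on the same strand without sharing exons. JmjC replicate 4 was the lowest sample for Eip78C and ImpE1. The block gave 4 higher and 2 lower and DESeq2 4 higher and 1 lower, as did the fit without JmjC replicate 3, and without L854F replicate 1 or with robust dispersion there was 1.

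Genes of histone methylation, the process in which KDM5 itself acts, showed small differences. Kdm4A, a demethylase of other histone lysines, fell by 0.24 (adjusted p 0.0326), and ash2, a subunit of complexes that methylate lysine 4 of histone H3, fell by 0.19 (adjusted p 0.0326). These were the only calls among 23 members, whose log2 changes ranged from -0.24 to 0.25, and none was higher with edgeR or DESeq2, with 1 higher and 5 lower at an unadjusted p under 0.05, where 14.7% and 15.7% of all genes stood. The block gave 1 higher and 4 lower. No member was called without L854F replicate 1 or 3 or without JmjC replicate 1, 2 or 4, and 1 was without L854F replicate 2.

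Markers of other tissues moved in both directions. apolpp, the lipophorin precursor gene of the fat body, stood at 839, 771, 917 and 1050 CPM in L854F, against 1233, 1246, 1280 and 1512 CPM in JmjC (log2 change -0.55, adjusted p 0.00319), while the other 6 fat body markers had positive log2 changes and none was called with edgeR or DESeq2, with 2 higher at an unadjusted p under 0.05. Pxn, a basement membrane peroxidase gene of hemocytes, rose by 0.56 (adjusted p 0.00339), and it was the only call among 9 hemocyte markers, which summed to between 292 and 329 CPM in L854F and between 242 and 321 CPM in JmjC. Hemocyte calls were 2 with the block and without JmjC replicate 3. Muscle markers had 2 of 11 called (18.2%, against 16.0% of all genes tested), TpnC73F (log2 change 0.66, adjusted p 0.000480) and Mf (0.70, adjusted p 0.0249). The muscle markers summed to between 67.1 and 121 CPM in L854F and between 68.3 and 83.2 CPM in JmjC. There were 4 muscle calls without L854F replicate 2, and 1 without L854F replicate 1 or without JmjC replicate 1 or 2. Of 21 midgut markers only Amy-p and Amy-d, amylase genes at a few CPM or less, were tested, and both were called higher (log2 changes 1.12 and 1.61, adjusted p 0.0279 and 0.0289). Neither was called without L854F replicate 1 or 2 or JmjC replicate 2, and 1 was without L854F replicate 4 or JmjC replicate 1 or 4. With no filter there were 2 calls in each direction. The midgut markers summed to between 3.12 and 4.35 CPM in L854F, to 1.84, 1.49, 58.5 and 1.55 CPM in JmjC, and to between 3.44 and 4.43 CPM in WT, so JmjC replicate 3 stood far above every other sample.

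Salivary gland markers, genes of the glue proteins, had negative log2 changes in all 5 tested members, with a median of -1.82. None was called with edgeR, 2 were lower at an unadjusted p under 0.05, and DESeq2 called 2 lower. There was 1 call, lower, without L854F replicate 2 or 3 and in the fit of all 12 samples, and 2 lower with no filter. They summed to 12.2, 5.69, 0.464 and 5.75 CPM in L854F, to 6.97, 58.6, 11.4 and 6.95 CPM in JmjC, and to between 3.91 and 20.01 CPM in WT, so JmjC replicate 2 stood highest. Of 4 tracheal and 6 brain and eye disc markers none was called with edgeR or DESeq2, with 1 tracheal marker lower at an unadjusted p under 0.05 and no brain or eye disc marker. The part of any of these tissues in the differences above was not tested.

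Called genes were not spread evenly along the genome. On chromosome 3, 18.0% of tested genes were called, against 12.8% on chromosome 2, with 15.1% on X. On chromosome 4, 19 of 87 genes (21.8%) were called, 3 higher and 16 lower in L854F. Of 164 tested identifiers without a position, 59 (36.0%) were called, 13 higher and 46 lower. The labels do not describe the genetic background of the stocks, so background and allele cannot be told apart.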

How the data were processed

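The authors sequenced TruSeq stranded mRNA libraries of Trizol RNA as paired reads of 150 bases, per the labels' protocols, and flies were kept at 25C. Tools named in the submitters' processing notes are Bowtie2 2.2.5, RSEM 1.2.12 and DESeq2, with genome build dm6. The deposited values used are RSEM expected counts per gene, which were whole numbers already, and the deposited gene lengths were not used in a test. The authors' comparison tables were not used. Both tables hold the same WT values, so they were joined by gene identifier. Symbols came from the name table for 14038 of 14251 identifiers and from the deposited tables for 66, and positions are 1-based from annotation BDGP6.54 of the dm6 assembly.

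The main test was edgeR 4.0.16 (R 4.3.3) with TMM scaling, filterByExpr defaults (minimum count 10, minimum total 15) and the quasi-likelihood F-test on the 8 samples, with Benjamini-Hochberg adjustment over all genes tested. CPM used 1 TMM scaling of all 12 samples. Each mutant was also fitted against WT on its own table. The fit was tested on simulated data. Genes were named by rule: Kdm5, the 10 largest changes each way among called genes of at least 2 CPM without overlap, the 6 largest of at least 50 CPM, and up to 3 called members per list with the smallest adjusted p. Further called or marker members of a list were named for completeness after their values were seen. The members, the lists and the naming rule were chosen with earlier results of these data known. Alternatives covered scaling, DESeq2 1.42.0, the filter, the genes kept, the samples fitted, dispersion, the replicate block and leaving out each sample.

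For samples with the same number, correlations of deviations across genes were 0.18, 0.13, 0.14 and 0.11 for numbers 1 to 4. Pairs with different numbers lay between -0.2705 and 0.1142, and the highest exceeded the 0.1088 of number 4. The labels do not say what a number shares, so a pairing is not established, and the main test used no block. The numbers served as a block in an alternative fit. Blocked values stand beside results whose call they change or whose count they move by over 1.5 times. No sequences were used here.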

Additional observations from a re-analysis of the deposited data

Results flagged for a closer look

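In each of 202 groups of 4 values, the sample farthest from the others was set against the range, and chance marks about 1 in 20 groups, so single cases below carry little weight. Kdm5 was lowest in L854F replicate 3, at 729 CPM, with the others between 785 and 795 CPM.

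Several cases were genes of low level. mthl8 had 0.062 CPM in JmjC replicate 4 and 0 in the other JmjC samples. CG12592 had 1.04 CPM in JmjC replicate 3, and CG15864 had 2.36 CPM in JmjC replicate 2, with 0 in the rest of each group. CG32572 had 0.184 CPM in L854F replicate 1, against 0.0605 to 0.0663 CPM in the others. Nlg1 stood at 2.73 CPM in JmjC replicate 4, against 1.65 to 1.74 CPM, and Rpt3R at 5.26 CPM in JmjC replicate 1, against 4.59 to 4.70 CPM.

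JmjC replicate 3 stood apart for Su(Ste):CR41533 (13.8 CPM, others 30.1 to 33.1), mth (103 CPM, others 91.7 to 93.5), AstA (52.0 CPM, others 55.5 to 56.3) and GluRIB (57.4 CPM, others 63.9 to 64.7). JmjC replicate 2 was low for GstD9 (3.92 CPM, others 5.20 to 5.43), and JmjC replicate 4 was high for apolpp (1510 CPM, others 1230 to 1280). L854F replicate 1 was high for GluRIA (105 CPM, others 94.6 to 96.1) and low for mRpS31 (25.5 CPM, others 29.2 to 29.8). Lcch3 was high in L854F replicate 4 (115 CPM, others 109 to 110) and in JmjC replicate 1 (100 CPM, others 96.6 to 96.8).

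One gene outside the comparison had a clear level. CG32318 (3L:1246073-1246923) is listed in the JmjC table only, at 2.42 ± 0.424 CPM in JmjC (SD, n = 4) and no count in the other 8 samples. With a floor of 3 counts per library it was at least 12.9-fold lower in L854F, with an adjusted p of 7.45e-05 in an edgeR fit of genes present in either table.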

How the results depend on the processing

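Without 1 sample, the number of called genes ranged from 977 to 1725; the ends were without JmjC replicate 1 and without JmjC replicate 3, and 980 were called without L854F replicate 1. At an adjusted p under 0.01 there were 659 (268 higher, 391 lower in L854F), and with a log2 change of at least 1 as well as an adjusted p under 0.05 there were 371. Other settings gave between 1451 (robust dispersion) and 2038 (replicate number as a block, 1442 of them among the 1473). The median over all genes was 0.0016, and -0.0196 with library totals, which gave 546 higher and 907 lower. The small log2 change in kdm5 level turned to -0.0128 with library totals, and it ranged from -0.0188 to 0.0384 without 1 sample. Of the 105 genes chosen by the naming rule besides Kdm5, 82 kept their call under every alternative with a value, 23 lost it under at least 1, and none reversed. Over all 164 called list members, which include the further genes named, 95 kept it, 69 lost it under at least 1, and none changed sign. The block ended 3 of these 164 calls, Prx6b among them. The cause of these shifts was not tested. Depth limits genes at a few CPM, where 1 sample can carry a difference.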
